A study of Drosophila melanogaster with 3 samples.

Results

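The neuronal ion channel and receptor genes described here are 45 Drosophila melanogaster genes taken from a list of symbols, all of which were found among the 13945 protein-coding genes of the dm6 annotation from Ensembl. They fall into 18 genes of voltage-gated channels, 21 genes of transmitter-gated receptors and 6 genes of other channels. Binding of Ewg (erect wing) at these genes was read from chromatin immunoprecipitation followed by sequencing (ChIP-seq), in which an antibody against GFP recovers DNA bound by a tagged protein. The material was whole embryos of pooled sex, aged 0 to 14 hours, of a transgenic line (strain ewg-GFP) that stably expresses Ewg with eGFP at its C-terminal end. The labels give 3 biological replicates, all of 1 group. No control sample or untagged embryos are among them, and a single transgenic line was used. A peak from whole embryos does not say in which cells the protein was bound, and in such material binding in few cells cannot be told apart from weak binding in many.

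Ewg is a transcription factor that neurons and flight muscle require for their development, and its vertebrate relative NRF-1 (nuclear respiratory factor) binds a GC-rich palindrome. Voltage-gated calcium, sodium and potassium channels open with changes in membrane voltage, and so start, shape and end action potentials and admit the calcium that triggers transmitter release. Transmitter-gated receptors open when acetylcholine, GABA or glutamate binds them, and so turn released transmitter into current in the receiving cell. In flies the nicotinic acetylcholine receptors carry most fast excitation in the central nervous system. GluRIIA, GluRIIB, GluRIIC, GluRIID and GluRIIE are known as receptors of body-wall muscle at the neuromuscular junction, so the word neuronal holds for these members only in the sense that they receive input from motor neurons.

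The bound DNA itself is shown for 6 members before the values. A member was called bound when a summit of the authors' optimal peak set lay within 500 bp of any of its transcript starts, and such a peak is called a promoter peak. The first 5 sequences are the bases within 100 bp of a promoter summit. Each is the strongest promoter peak of its family outside 1 chromosome arm whose sequence is not shown here and which holds the stronger peaks of stj and sei, and a family is shown where that window held a site. The last is the member peak with an exact NRF-1 palindrome, in an intron of Ca-beta. Annotated untranslated bases were left out. All are read 5′ to 3′ on the strand of the gene from the RefSeq copy of dm6. Capitals mark the palindrome with at most 1 mismatch or the hexamer TGCGCA, which is one side of the longer site. The windows are chrX:11983939-11984139 on the minus strand for cac, chr3L:4188024-4188220 on the plus strand for tipE, chrX:14266251-14266357 on the plus strand for na, chr3L:17822982-17823182 on the plus strand for Grd, chr3R:24514718-24514918 on the minus strand for nAChRbeta2 and chr2L:11175547-11175747 on the minus strand for Ca-beta.
cac: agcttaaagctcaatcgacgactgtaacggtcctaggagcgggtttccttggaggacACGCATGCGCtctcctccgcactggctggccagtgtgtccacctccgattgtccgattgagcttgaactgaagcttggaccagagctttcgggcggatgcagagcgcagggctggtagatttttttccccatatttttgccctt
tipE: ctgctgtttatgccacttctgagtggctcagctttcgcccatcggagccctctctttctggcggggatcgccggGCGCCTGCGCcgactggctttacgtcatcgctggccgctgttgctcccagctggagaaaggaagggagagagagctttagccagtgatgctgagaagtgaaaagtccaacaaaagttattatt
na: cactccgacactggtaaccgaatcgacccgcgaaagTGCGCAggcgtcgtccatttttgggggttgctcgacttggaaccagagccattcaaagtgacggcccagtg
Grd: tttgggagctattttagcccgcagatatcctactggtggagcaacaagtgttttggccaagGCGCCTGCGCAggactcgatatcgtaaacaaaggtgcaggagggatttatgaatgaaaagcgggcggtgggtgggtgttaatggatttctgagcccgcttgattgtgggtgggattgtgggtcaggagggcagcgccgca
nAChRbeta2: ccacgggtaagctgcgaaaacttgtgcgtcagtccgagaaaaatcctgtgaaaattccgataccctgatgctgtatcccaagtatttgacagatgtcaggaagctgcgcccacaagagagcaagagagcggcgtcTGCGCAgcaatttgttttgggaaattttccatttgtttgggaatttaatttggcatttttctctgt
Ca-beta: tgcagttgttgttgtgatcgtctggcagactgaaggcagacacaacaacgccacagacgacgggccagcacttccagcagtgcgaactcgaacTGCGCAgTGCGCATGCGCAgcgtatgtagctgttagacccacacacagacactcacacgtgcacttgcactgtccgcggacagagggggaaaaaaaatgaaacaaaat

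In these sequences cac, tipE and Grd carry a palindrome with 1 mismatch, na and nAChRbeta2 carry the hexamer alone, and the Ca-beta intron carries the exact palindrome beside a further hexamer. The capitals run together in Grd because a hexamer overlaps the palindrome. The windows at Shal and Nmdar1, chosen by the same rule for the remaining families, held no palindrome or hexamer and are not printed.

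Ewg was bound at the promoters of 20 of the 45 members (44.4%), against 26.4% of all protein-coding genes. Voltage-gated channel genes were bound in 11 of 18 cases (61.1%, exact 95% interval 35.75 to 82.7) and transmitter-gated receptor genes in 7 of 21 (33.3%, exact 95% interval 14.6 to 57.0). Of the 6 other channel genes, 2 were bound. The intervals are Clopper-Pearson, and they cover the counting of genes only. The bound voltage-gated members were cac, stj, Ca-beta, NaCP60E, tipE, Shab, Shal, Shaw, eag, sei and slo. The bound receptor members were Grd, nAChRalpha1, nAChRalpha2, nAChRalpha5, nAChRbeta1, nAChRbeta2 and Nmdar1, and the other bound members were Irk1 and na.

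Binding by family ran higher in each voltage-gated family than in each receptor family, in families of 3 to 10 genes. Calcium channel genes were bound in 3 of 5 cases, sodium channel genes in 2 of 3, and voltage-gated potassium and cation channel genes in 6 of 10. Nicotinic receptor genes were bound in 5 of 10, genes of GABA-gated and glutamate-gated chloride receptors in 1 of 4, and genes of glutamate-gated cation receptors in 1 of 7. None of the 5 muscle genes GluRIIA to GluRIIE was bound.

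The strength of each peak is given as relative signal, which is the authors' signal in a replicate divided by the median of that replicate over the 5852 optimal peaks found in all 3 replicate lists. A value of 1 is thus a typical optimal peak. Read depth is unknown from peak lists, so no limit from depth can be given, and the SD over replicates is the error of each value.

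The strongest promoter peak of the members was at the calcium channel gene stj. At stj, which encodes the α2δ subunit that brings calcium channels to the presynaptic membrane, relative signal was 8.89, 14.6 and 9.35 in replicates 1, 2 and 3, a mean of 11.0 ± 3.19 (SD, n = 3). This peak ranked 8 of 6793, with the summit in the 5′ UTR and 153 bp upstream of the second of 2 annotated starts on 2R. At cac, the pore-forming subunit of the presynaptic calcium channel, the values were 3.64, 6.19 and 3.15 in replicates 1, 2 and 3 (rank 214). The cac summit lay in an intron, 124 bp upstream of an internal start and 1048 bp downstream of the outermost start. At Ca-beta, the cytoplasmic subunit of these channels, they were 2.93, 4.58 and 2.52 (rank 414), 386 bp upstream of the outermost start. At each of these genes replicate 2 was highest, and every replicate was well above the typical peak. A weaker Ca-beta promoter peak at an internal start (rank 5280) was found in the lists of replicates 1 and 2, at 0.535 and 1.04. The pore-forming genes Ca-alpha1D (L-type) and Ca-alpha1T (T-type) had no promoter peak.

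Of the sodium channel genes, NaCP60E and tipE were bound and para was not. NaCP60E encodes a channel related to the main sodium channel of the fly, which is encoded by para. Its relative signal was 2.97, 2.03 and 2.54 in replicates 1, 2 and 3 (2.51 ± 0.47, SD, n = 3, rank 796). That summit lay 95 bp from an internal NaCP60E start and 87 bp from the start of RpL41, a ribosomal protein gene that lies there. At tipE, an auxiliary subunit that raises para current, the values were 1.70, 3.24 and 2.21 (2.38 ± 0.79, SD, n = 3, rank 757). This summit was 379 bp upstream of the tipE start and 97 bp from that of Teh2, a related auxiliary subunit gene. A peak nearer to tipE, 176 bp upstream of its start, had 1.02, 1.45 and 1.28 (rank 2176).

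Among the potassium and cation channel genes, sei stood highest. It encodes a channel of the ether-a-go-go family, and its relative signal was 4.43, 7.38 and 4.83 in replicates 1, 2 and 3 (5.55 ± 1.60, SD, n = 3, rank 111). The summit lay 246 bp from an internal sei start and 54 bp from the start of gammaSnap1, a gene of the vesicle fusion machinery. A second sei peak lay 33 bp from the same internal start, with 1.69, 2.55 and 1.87 (rank 1064). Shal and Shaw encode voltage-gated potassium channels, and in both replicate 2 was highest.

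The values at Shal were 1.36, 3.24 and 1.33 (1.98 ± 1.10, SD, n = 3, rank 988), with the summit 54 bp upstream of its only start. At Shaw they were 1.34, 2.65 and 1.5 (1.83 ± 0.71, SD, n = 3, rank 1149), 116 bp upstream of the outermost start and 296 bp from lectin-24A. The other 3 bound genes of this family were close to or under the typical peak. The ether-a-go-go gene eag had 1.12, 1.33 and 1.18 (rank 2367). The calcium- and voltage-activated slo had 0.838, 0.960 and 0.804 (rank 3439). Shab, which carries delayed rectifier current, had 0.530, 0.863 and 0.534 (rank 4819) at an internal start, and a second peak (rank 6570) at its outermost start.

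The receptor promoter peaks were led by Nmdar1, an obligatory subunit of NMDA receptors. Its relative signal was 1.59, 3.64 and 1.79 in replicates 1, 2 and 3 (2.34 ± 1.13, SD, n = 3, rank 789), with the summit 100 bp upstream of its start and 308 bp from that of CG43845. Of the nicotinic subunit genes, nAChRbeta2 had 1.79, 3.02 and 1.45 (2.09 ± 0.83, SD, n = 3, rank 948), in an intron 288 bp downstream of its start and 460 bp from DZIP1. In each of these genes replicate 2 was highest.

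The nicotinic genes nAChRalpha2 and nAChRbeta1 differed more between replicates than from each other. The values at nAChRalpha2 were 0.709, 2.58 and 0.951 (1.42 ± 1.02, SD, n = 3, rank 1585). At nAChRbeta1 they were 0.759, 2.16 and 1.26 (1.40 ± 0.71, SD, n = 3, rank 1786). The means of these 2 genes differed by less than either SD. At nAChRalpha1 the values were 0.698, 1.77 and 0.880 (rank 2552), and at nAChRalpha5 they were 0.581, 0.710 and 0.762 (rank 4913). Second promoter peaks were present at nAChRalpha2 (rank 4311) and nAChRbeta2 (rank 3178). Grd, which encodes a subunit related to GABA receptors, had 0.843 in replicate 1 and 0.860 in replicate 3 (rank 3092) and no summit in the list of replicate 2. That summit lay 251 bp from the Grd start and 248 bp from that of Ir75c, an ionotropic receptor gene.

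The genes nAChRalpha1, nAChRalpha2 and nAChRbeta2 lie near each other on 3R, and each of the 3 had a promoter peak of its own. They are annotated from 24393896 to 24457157, from 24485428 to 24491147 and from 24509228 to 24515106. Their summits, at 24457230, 24485496 and 24514818, were each within 288 bp of the gene's own start.

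Of the other channel genes, na and Irk1 were bound. The sodium leak channel gene na had 3.11, 3.98 and 3.12 in replicates 1, 2 and 3 (3.40 ± 0.50, SD, n = 3, rank 409), with the summit 110 bp from its start and 7 bp from that of CG13404. The inward rectifier gene Irk1 had 0.949, 0.583 and 0.918 (0.817 ± 0.203, SD, n = 3, rank 3725) at an internal start shared with CG46310. Here replicate 2 was the lowest of the 3. The potassium channel genes SK, Irk2, Irk3 and Ork1 had no promoter peak.

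**Figure D1:**
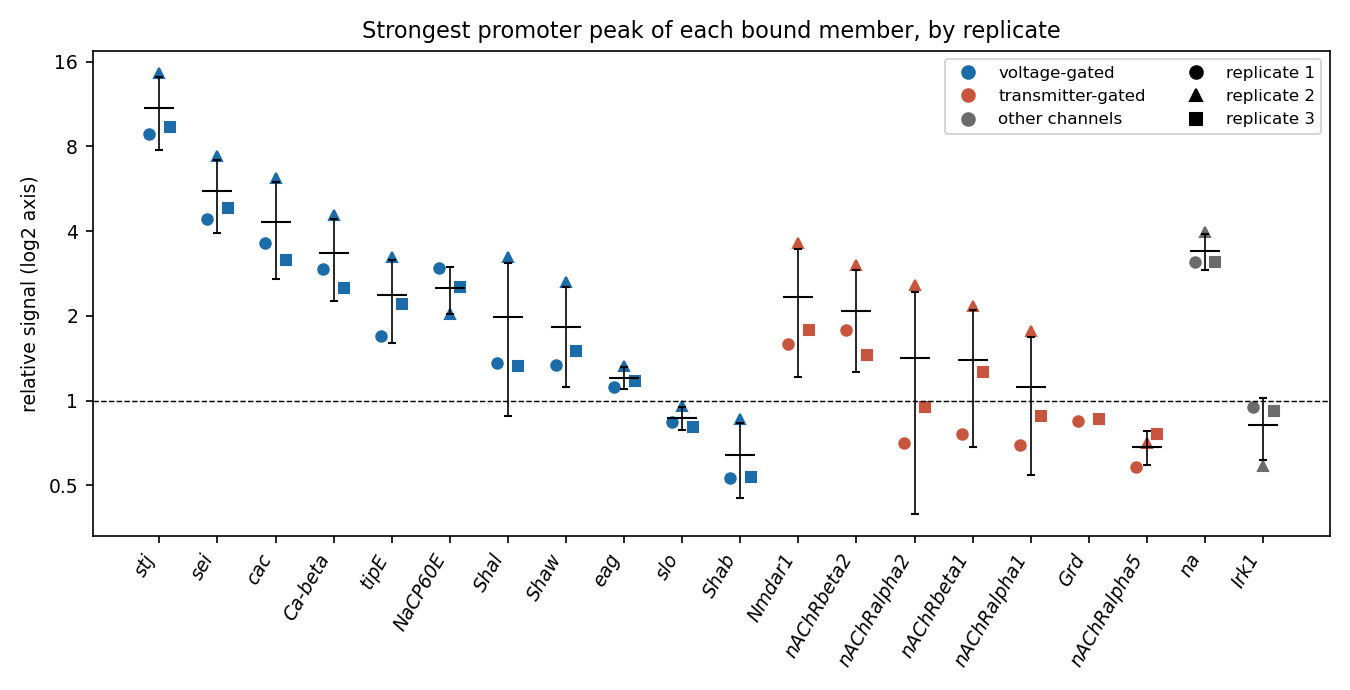
Relative signal (log2 axis) of the strongest promoter peak of the 20 bound members in each replicate, with voltage-gated channel genes at the left, then transmitter-gated receptor genes, then other channel genes. Black bars are the mean and SD over 3 replicates, and the dashed line at 1 is the typical optimal peak; stj has a mean of 11.0 and Shab one of 0.642, and Grd has values in replicates 1 and 3 only, so no mean is drawn.

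Of the 20 strongest promoter peaks, 10 also lay within 500 bp of a start of another protein-coding gene, and 5 were nearer to the other gene. Of all bound genes, 51.8% had a strongest promoter peak shared with another gene. The 5 were those of NaCP60E, tipE, sei, na and Grd. When each peak counted only for its nearest gene, tipE and sei stayed bound only through a weaker summit of the same region. On this count 17 of 45 members were bound, against 20.5% of all genes. The summit was upstream of the nearest start in 15 of 20 members (75.0%), against 85.65% of all bound genes. The nicotinic genes had it upstream in 2 of 5, and the calcium channel genes in 3 of 3.

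The members' promoter peaks had higher medians than those of bound genes in general, by a margin that differed between replicates. The median pooled signal of the strongest promoter peak was 595.1 over the 20 bound members and 318.9 over all 3679 bound genes. It was 712.4 for voltage-gated and 430.7 for transmitter-gated members. The value of 712.4 is that of the NaCP60E peak, which lay nearer to the start of RpL41. All medians given here for the members include the peaks of NaCP60E, tipE, sei, na and Grd that lay nearer to another gene. Medians without those peaks were not taken. The median relative signal over the 19 members measured in every list was 1.36, 2.65 and 1.45 in replicates 1, 2 and 3, against 1.26, 1.20 and 1.21 over all bound genes. In replicates 1 and 3 the members thus stood little above all bound genes, and in replicate 2 well above. By class, the medians were 1.70, 3.24 and 2.21 over 11 voltage-gated members and 0.734, 2.37 and 1.11 over 6 transmitter-gated members. The transmitter-gated members were thus below all bound genes in replicates 1 and 3 and above them in replicate 2 only.

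That tilt of replicate 2 was measured directly. Of the 24 member promoter peaks found in all lists, 22 (91.7%) had a higher relative signal in replicate 2 than the geometric mean of replicates 1 and 3, by a median ratio of 1.61. Over all 2740 such promoter peaks 53.6% were higher, with a median ratio of 1.06. All 8 receptor promoter peaks were higher (median ratio 2.18), as were 13 of 14 voltage-gated ones, while the members' in-gene peaks split as 17 of 31. Over all promoter peaks GC content moved with this, with a median ratio of 1.64 at a GC of 50% or more and 0.921 under it. For member promoter peaks these ratios were 1.65 and 1.52, and so differed little. The median GC within 100 bp of the summit was 51.0% for member promoter peaks and 40.3% for all promoter peaks. Member in-gene peaks had a median GC of 48.3%, near that of member promoter peaks, but a median ratio of 1.055. All optimal peaks outside promoters had 38.3% and 0.931. At a GC of 50% or more, 12 of 12 member promoter peaks were higher in replicate 2, against 91.0% of all promoter peaks at such a GC. Under a GC of 50%, 10 of 12 member promoter peaks were higher, against 43.4% of all promoter peaks at such a GC. The part of GC in this tilt was not tested beyond these counts. Without replicate 2 the mean of the members' medians was 1.40 in place of 1.82.

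**Figure D2:**
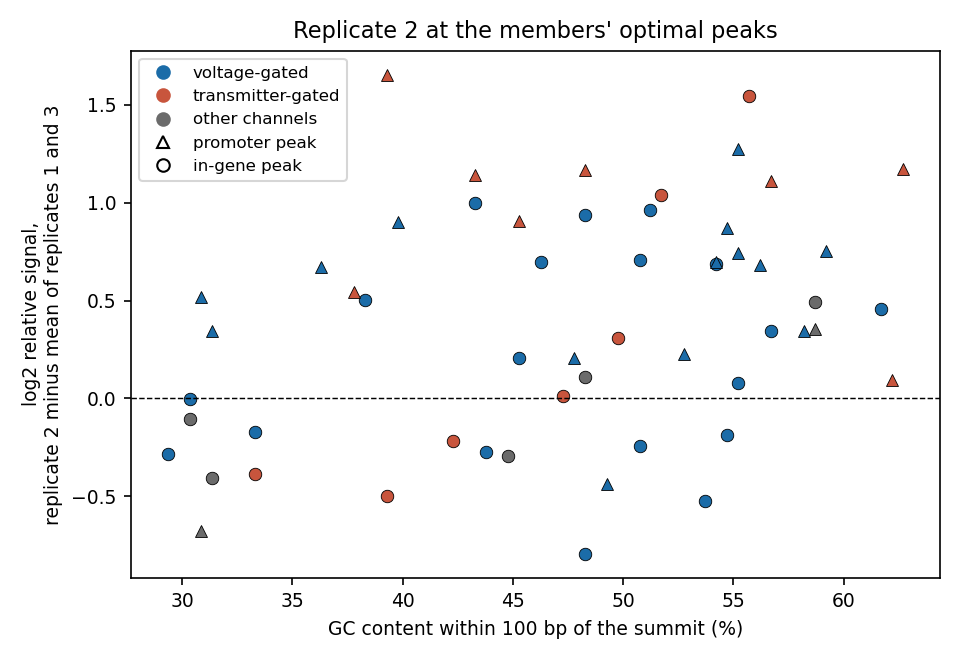
Difference in log2 relative signal, replicate 2 minus the mean of replicates 1 and 3, against GC content (percent, within 100 bp of the summit) for the members' peaks found in all 3 lists. Triangles are promoter peaks and circles in-gene peaks; 22 of 24 triangles and 17 of 31 circles lie above 0.

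The contrast of voltage-gated channels with transmitter-gated receptors was then read in each replicate alone, from as many of its strongest regions as the optimal set holds. Voltage-gated genes were bound in 61.1%, 66.7% and 66.7% of cases in replicates 1, 2 and 3, and transmitter-gated genes in 33.3%, 33.3% and 38.1%. All protein-coding genes gave 25.9%, 27.3% and 24.5%. The difference, voltage-gated minus transmitter-gated, was 27.8, 33.3 and 28.6 percentage points, a mean of 29.9 ± 3.01 (SD, n = 3). It had the same sign in all 3 replicates and was larger than their spread (two-sided exact sign-flip permutation p = 0.25, the smallest that this test allows with 3 replicates). The replicates share the same genes, so this spread does not cover the choice of genes. Without the auxiliary subunit genes stj, Ca-beta and tipE the difference was 22.9 points. With only the outermost start of each gene this mean over replicates was 13.2 points. In the optimal set that setting left 8 of 18 voltage-gated and 7 of 21 transmitter-gated members bound, against 23.7% of all genes. The voltage-gated genes lost were cac, NaCP60E and sei, which held their peaks at internal starts.

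**Figure D3:**
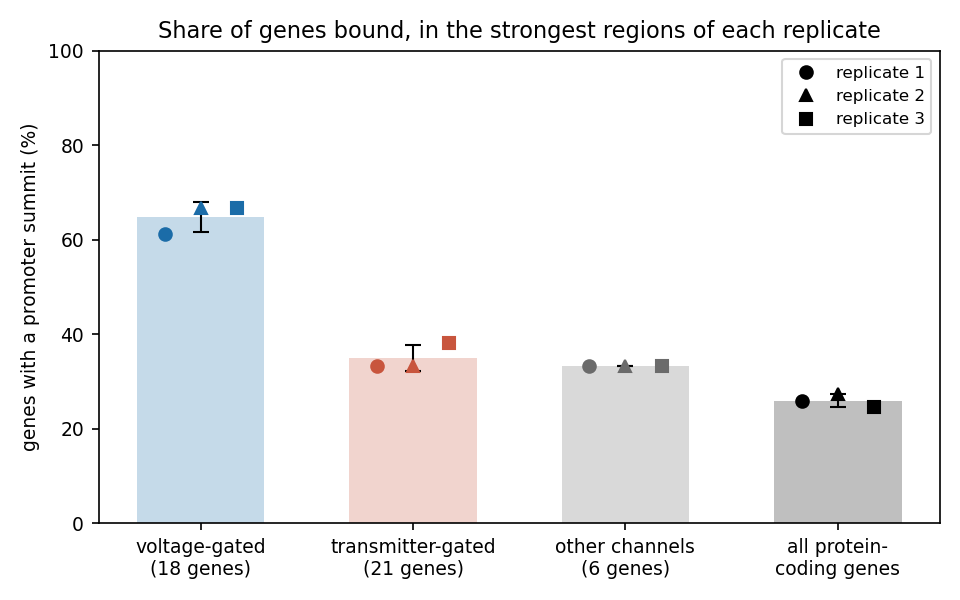
Share of genes (percent) with a promoter summit among the strongest regions of each replicate, for the 3 classes of members and, at the right, for all protein-coding genes. Bars are the mean and SD over 3 replicates; the voltage-gated genes lie between 61.1% and 66.7% and the transmitter-gated genes between 33.3% and 38.1%.

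The classes also differed in the length of their genes and in their number of starts, which bear on how many summits a gene can hold. The median gene span was 46.96 kb for voltage-gated and 14.49 kb for transmitter-gated members, against 2.17 kb for all genes. Starts over 500 bp apart, counted here as separate start clusters, numbered more than 1 in 12 of 18 voltage-gated and 3 of 21 transmitter-gated genes. Among genes with 1 cluster, 4 of 6 voltage-gated and 7 of 18 transmitter-gated members were bound, against 22.3% of all such genes. Among genes with more than 1, the counts were 7 of 12 and 0 of 3, against 49.3%. In the voltage-gated genes with several clusters, 9 of their 33 clusters held a peak.

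By gene span, the counts of the members ran the other way from those of all genes. Of the members, 8 of 23 with a span over 20 kb were bound (34.8%), against 51.2% of all such genes. Of the shorter members 12 of 22 were bound (54.5%), against 24.4% of all shorter genes. All 5 shorter voltage-gated genes (stj, tipE, Shal, Shaw and sei) were bound, and 6 of the 13 longer ones (46.15%). Of the transmitter-gated genes, 5 of 12 shorter ones (41.7%) and 2 of 9 longer ones (22.2%) were bound. The longer genes of both classes were thus bound less often than all genes of such a span. The part of span and start number in the difference between the classes was not tested beyond these counts.

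Away from the starts, 18 of the 45 members (40%) held at least 1 optimal summit elsewhere in the gene span, against 9.69% of all genes. Among genes with a span over 20 kb it was 14 of 23 (60.9%) for the members and 56.7% for all genes, and among shorter genes 4 of 22 for the members and 6.01% for all genes. Per length the members held 2.39 in-gene summits per 100 kb and all genes 2.76. In-gene summits were present in 10 of 18 voltage-gated genes (2.98 per 100 kb), 6 of 21 transmitter-gated genes (1.20 per 100 kb) and 2 of 6 other channel genes (4.35 per 100 kb). Of the 36 in-gene summits 34 lay in introns, 1 in a coding exon and 1 in a 5′ UTR. Within 500 bp of a start of another gene lay 6 of the 36, in Ca-beta, Sh, KCNQ and nAChRalpha5. The values per length include these 6. Counting both kinds of peak, 17 of 18 voltage-gated and 10 of 21 transmitter-gated genes held at least 1 optimal peak, against 30.7% of all genes, and the voltage-gated gene without any was Ca-alpha1D. Among genes with a span over 20 kb these counts were 12 of 13 and 5 of 9, against 73.8% of all such genes, and among shorter genes 5 of 5 and 5 of 12, against 27.3%.

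Optimal summits within 5 kb upstream of the gene, but outside its promoter windows, were present at 13 of the 45 members, against 23.8% of all genes. The genes eag, sei and Elk had 3 each, the highest number among the members, and tipE had 2. These numbers include summits at starts of neighbouring genes, and the share of all genes with 3 is not given here.

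Ca-beta held 6 in-gene peaks, the most of any member. The strongest (2L, 11178790 to 11179445, summit 11179009) had 8.77, 11.4 and 7.38 in replicates 1, 2 and 3 (9.18 ± 2.04, SD, n = 3) and ranked 20 of 6793. It lay in a Ca-beta intron 8133 bp from the nearest Ca-beta start, and 23 bp from the start of Boh2, a gene that starts within Ca-beta. A second intronic peak, 1007 bp from a Ca-beta start and in no other promoter, had 2.42, 4.44 and 2.15 (rank 526). The palindrome peak printed above was weak, with 0.617, 0.429 and 0.618 (rank 6216), and lay 3385 bp from the nearest other gene start. The exact site thus stood at one of the weakest peaks of the gene.

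In the other families, the strongest in-gene peaks were led by KCNQ. This gene of a muscarine-sensitive type of potassium channel had 4 in-gene peaks and no promoter peak, the strongest with 3.37, 2.94 and 3.76 (3.36 ± 0.41, SD, n = 3, rank 478), 4823 bp from its nearest start and 769 bp from that of mlt. The KCNQ peaks of ranks 3736 and 4051 had a summit in the list of replicate 2 only. Those of ranks 4051 and 5871 lay 32 and 172 bp from the mlt start. In Irk1 the strongest had 2.30, 2.14 and 2.30 (2.25 ± 0.09, SD, n = 3, rank 888), 1758 bp into the gene from an internal start. That peak was above the Irk1 promoter peak in each replicate. In NaCP60E the strongest had 1.26, 1.49 and 0.935 and was the only one in a coding exon.

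The receptor families had weaker in-gene peaks. In nAChRalpha5 the strongest had 0.952, 0.764 and 1.05, and lay 200 bp from the start of NimC4. In GluClalpha, the glutamate-gated chloride channel, the only one had 0.568, 1.14 and 0.543, and in Nmdar1 the only one had 0.899, 0.549 and 0.667. Those of Rdl, the main GABA-gated chloride channel gene, and of nAChRalpha6 averaged 0.626 ± 0.061 and 0.690 ± 0.089 (SD, n = 3 each), and that of nAChRbeta1 0.693 ± 0.465. None of these receptor peaks had a mean above the typical optimal peak.

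In-gene peaks were the only optimal peaks of 10 members. These were Ca-alpha1T, para, Sh, Elk, KCNQ and Ih of the voltage-gated class, Rdl, nAChRalpha6 and GluClalpha of the receptors, and SK. Sh, which carries fast A-type potassium current, held 4, the strongest with 0.999, 1.02 and 0.930 (rank 3145) and 44 bp from the start of CG6867 inside the gene. In para there were 2, at 1455 and 1097 bp from its starts, with ranks 5856 and 5989. The ether-a-go-go gene Elk held 1 (rank 4458), the hyperpolarization-activated Ih held 2 and the calcium-activated SK held 3, the strongest of these with ranks 3514 and 2737. The single peak of Ca-alpha1T lay 82403 bp from its start (rank 3973).

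**Figure D4:**
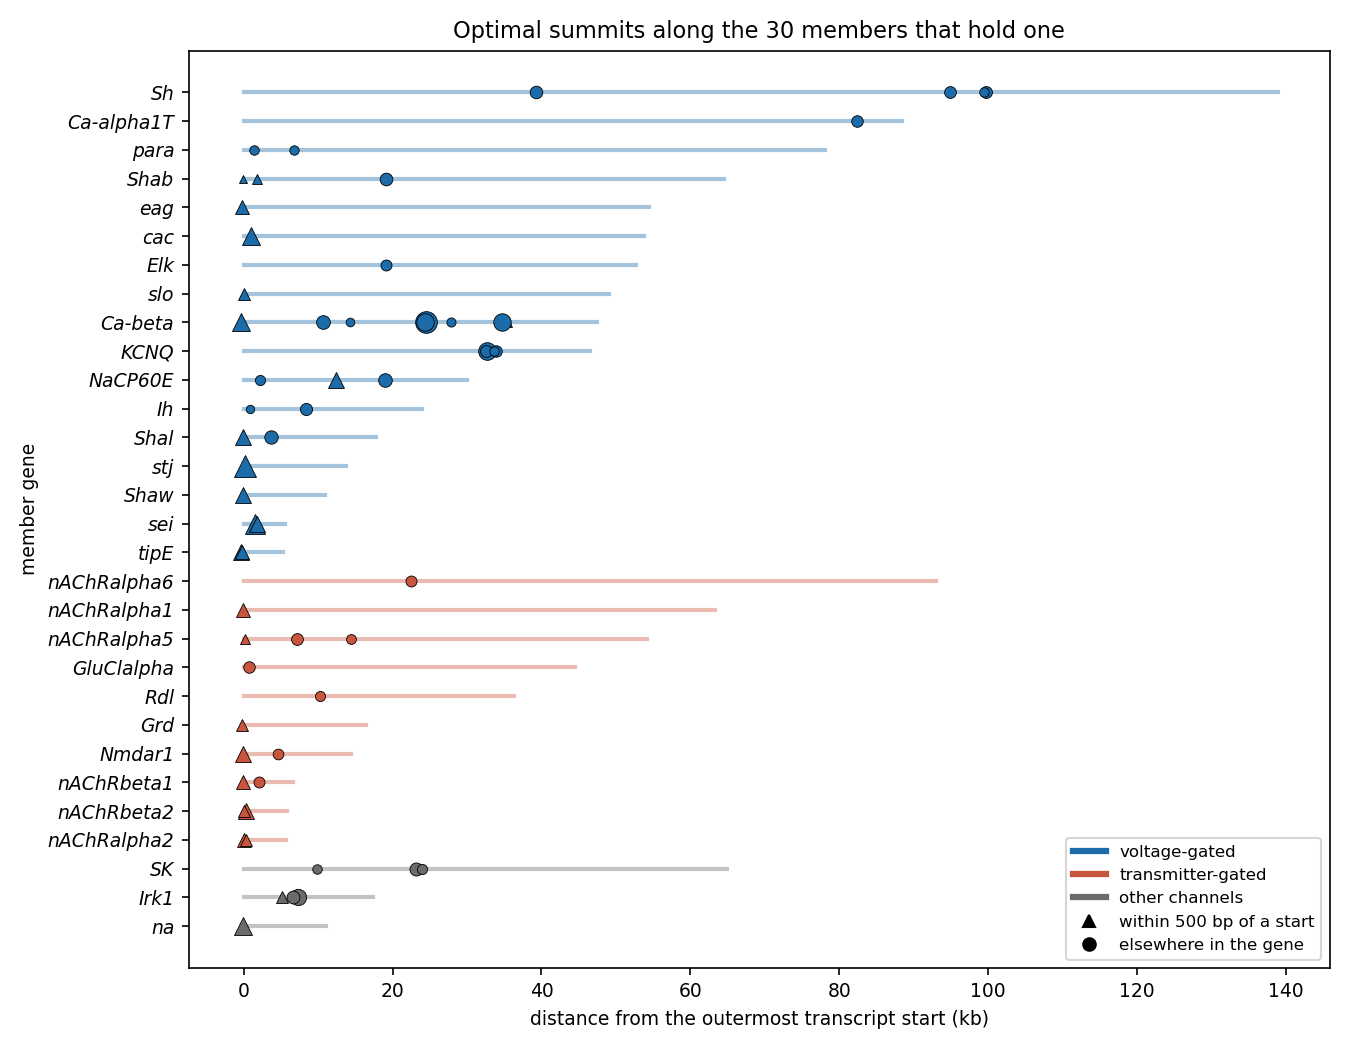
Optimal summits along the 30 members that hold one, by distance from the outermost transcript start (kb), with lines for the gene span. Triangles are promoter summits and circles in-gene summits, and larger symbols have higher pooled signal; the voltage-gated genes hold 24 circles and the transmitter-gated genes 7.

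Promoter peaks of the members had a higher median than their in-gene peaks in every replicate. The median relative signal was 1.23, 2.35 and 1.30 over 24 promoter peaks and 0.820, 0.837 and 0.758 over 31 in-gene peaks in replicates 1, 2 and 3. The difference in log2 relative signal was 0.58, 1.49 and 0.78, a mean of 0.95 ± 0.48 (SD, n = 3; two-sided exact sign-flip permutation p = 0.25, the smallest possible). Over all optimal peaks the same difference between promoter and other peaks was 0.37, 0.42 and 0.29. Without replicate 2 the members' difference was 0.68. Of the members' promoter peaks 22 of 26 were among the strongest regions of all 3 replicates, against 63.9% of all promoter peaks, and of their in-gene peaks 23 of 36.

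Below the optimal set lie the permissive lists, which the authors describe as holding background besides peaks, so a region there is no call of binding. A pooled permissive region had its summit within 500 bp of a start in 37 of 45 members (82.2%), against 46.8% of all genes. These were all 18 voltage-gated genes, 15 of 21 transmitter-gated genes and 4 of 6 other channel genes. Among genes with a span over 20 kb it was 91.3% of members and 82.7% of all genes, and among shorter genes 72.7% and 44.0%. Of the 25 members without a promoter peak 17 held such a region, against 27.8% of all genes without one. Of those with a span over 20 kb, 13 members held a region and 2 did not, against 319 and 175 of all genes. Of the shorter ones, 4 members held a region and 6 did not, against 2531 and 7241 of all genes. The 8 members with none were Irk2, Ork1, Lcch3 (a GABA receptor-related subunit), nAChRalpha7, GluRIIC, GluRIID, GluRIIE and Nmdar2.

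The nearest to the optimal set was Sh, whose region at 1 of its starts had a pooled signal of 136.7, or 96.4% of the weakest optimal peak (141.8). Sh had a promoter summit among the strongest regions of replicates 2 and 3 but not of replicate 1. The next were nAChRbeta3 at 117.4, in a region shared with the signal peptide peptidase gene Spp, SK at 96.8, GluClalpha at 87.9, Rdl at 84.1 and para at 81.7. GluClalpha was bound among the strongest regions of replicate 2 alone, and nAChRalpha7 among those of replicate 3 alone. The remaining members had weaker regions. These were Ca-alpha1D (70.1), GluRIIB (64.0), nAChRalpha4 (61.2), Ca-alpha1T (60.3), nAChRalpha6 (60.2), Ih (51.1), Elk (41.2), Irk3 (39.8), nAChRalpha3 (38.3), KCNQ (35.7) and GluRIIA (34.8). Of the 20 bound members 19 were bound in each of the 3 replicates, the exception being Grd, and 22 of the 25 others in none. The optimal set derives from the same 3 replicates, so such agreement is partly built in. The same shares over all genes are not given here, so these counts show nothing particular to the members.

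**Figure D5:**
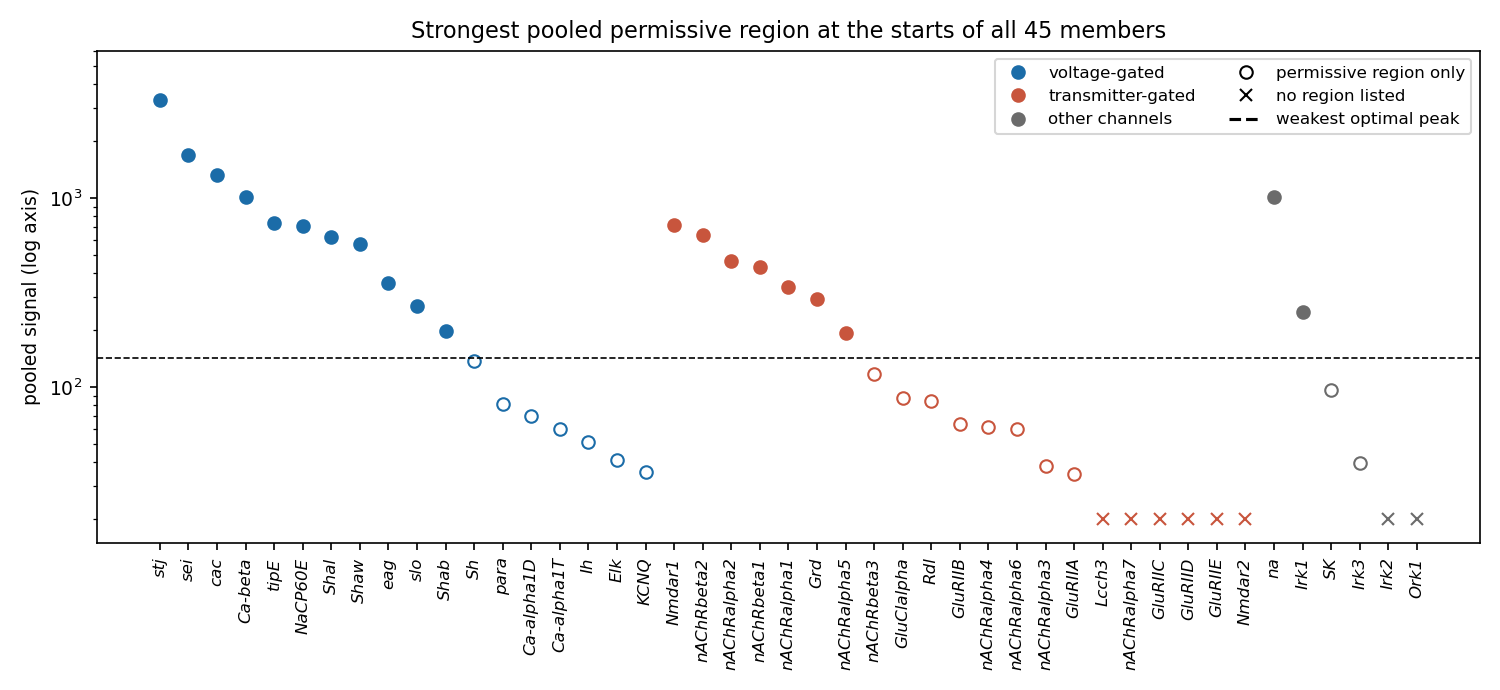
Pooled signal (log axis) of the strongest permissive region within 500 bp of a start for all 45 members, by class. Filled circles have an optimal promoter peak, open circles a permissive region only, and crosses, drawn at an arbitrary height, have no region listed; Sh at 136.7 lies just under the dashed line of the weakest optimal peak at 141.8.

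Short motifs were counted within 100 bp of the summit on both strands, for the 62 optimal peaks at or in members and for all 6793. The exact NRF-1 palindrome was in 1 member peak (1.61%), against 1.94% of all peaks. With at most 1 mismatch it was in 10 (16.1%), against 10.5%, and the hexamer TGCGCA in 17 (27.4%), against 17.2%. The hexamer can lie within a palindrome, so these counts overlap. The peaks with at most 1 mismatch were those of stj, cac, tipE, Shaw, Grd and nAChRbeta1 at promoters, and in-gene peaks of Ca-beta (2 peaks), NaCP60E and Rdl. The GAGA motif (GAGAGAG) was in 18 member peaks (29.0%), against 10.03%. It was in 13 of 36 in-gene and 5 of 26 promoter member peaks, with 11 overlapping copies at the strongest in-gene peak of Sh. The DRE (TATCGATA), the site of the factor DREF, was in 2 (3.23%), against 3.46%, and the E-box CAGCTG in 11 (17.7%), against 12%. Member peaks had a median GC of 48.8%, against 39.3%, and its part in these shares was not tested. A match is a string of letters and not a shown site.

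A further list of 56 channel and receptor genes outside the 45 was read in the same way, and each was matched to the annotation. Of these, 19 were bound (33.9%, exact 95% interval 21.8 to 47.8), against 26.4% of all genes, which lies within that interval. In-gene peaks were present in 14 (25%), against 9.69% of all genes. These genes had a median span of 10.77 kb, against 2.17 kb for all genes. Per length they held fewer in-gene summits, at 1.71 per 100 kb against 2.76. The strongest promoter peak was at KaiR1D, a kainate-type glutamate receptor, with 6.93, 9.71 and 7.01 in replicates 1, 2 and 3 (7.88 ± 1.58, SD, n = 3, rank 35). Next was GABA-B-R2, a subunit of the metabotropic GABA receptor, with 3.17, 6.37 and 2.90 (4.15 ± 1.93, SD, n = 3, rank 238), in a peak shared with CG6800. The partner subunit gene GABA-B-R1 had no optimal peak. The gene unc79, needed for the sodium leak channel encoded by na, had 1.67, 3.82 and 2.30 (2.60 ± 1.11, SD, n = 3, rank 655). Its partner unc80 had 1 in-gene peak and no promoter peak. Teh2 came next with the peak it shares with tipE (rank 757), and of its relatives Teh1 and Teh4 were bound and Teh3 was not. The ionotropic AMPA-type genes GluRIA and GluRIB and all of the muscarinic receptor genes mAChR-A, mAChR-B and mAChR-C lacked a promoter peak.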

How the data were processed

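The authors deposited peak lists on dm6 and dm3, and those on dm6 were used: an optimal set thresholded by irreproducible discovery rate, a permissive list pooled over 3 replicates, and 1 permissive list for each replicate. The dm3 lists are not used here. The signal of each region is the authors' deposited value, with a scale that differs between lists, and each summit is an offset that the authors deposited beside it. Per the file records, all lists share a control alignment. The name of the aligner or the peak caller is not given in the sources used here. Per the labels, chromatin was sonicated to 200 to 800 bp.

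A summit in a replicate list matched an optimal summit within 100 bp, and replicates were compared in their 6793 strongest regions, the size of the optimal set. Genes are the protein-coding genes of Ensembl release 115, and non-coding genes were not used. Genes sharing a peak were each counted. Each deposited summit was counted as a peak of its own, also where several summits lay in the same region. Every member is named, and values are given for each bound member, for the strongest in-gene peak of each family and for the 4 strongest of the further genes; other values were chosen after they were seen. Of the further genes, 1 was matched by an older symbol and 4 by another letter case. Members and lists were chosen with earlier results of these data known, so their counts carry no set test. Python 3.11.15, numpy 2.4.6, scipy 1.17.1 and matplotlib 3.10.9 were used, and the counting was tested on simulated peaks.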

Additional observations from a re-analysis of the deposited data

How the results depend on the processing

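Alternatives were promoter windows of 250 and 1000 bp, 1 start per gene, the nearest gene only, the stronger 3396 optimal peaks, other ways of matching summits, and optimal peaks present in both other replicates when 1 was left out. These gave 65 alternative values over 10 results. Only the difference between the classes and that between promoter and in-gene peaks have a direction, and neither changed it. The other results are counts, shares or medians. Counts are called moved past 1.5 times, values without a test past 1 SD or, for shares, their exact 95% interval, and tested differences only by direction and call. By these limits 3 moved, as follows. Members with in-gene summits numbered 8 in those stronger peaks in place of 18, and the share of all genes in that setting is not given here. The palindrome share was 16.1% with at most 1 mismatch in place of 1.61%. The median relative signal became a percent rank of 94.7 when ranks replaced signal, which is another unit. The difference between the classes is not among these 3. It kept its direction but was 13.2 points with 1 start per gene, in place of 29.9. Bound members numbered 16 to 25, while the share of all genes ran from 15.8% to 30% over the same settings. Without a replicate they numbered 19 to 20, against 19.6% to 20.45% of all genes. The difference between the classes ran from 13.2 to 35.5 points, and from 28.2 to 30.95 without a replicate. With 3 replicates in 1 group and no control sample the sign-flip test used could not pass, and read depth is unknown.
Without 1 replicate, in-gene members numbered 15 to 17, the median relative signal was 1.40 to 2.05, and the log2 difference between promoter and in-gene peaks was 0.68 to 1.13. Among the further genes 13 to 22 were bound, while the share of all genes ran from 15.8% to 30%. Without a replicate 15 to 17 of the further genes were bound, against 19.6% to 20.45% of all genes. Leaving out summits at starts of other genes left 18 members with an in-gene peak. That alternative, the settings for the further genes and the left-out replicates for the promoter and in-gene difference were chosen after seeing the data. No paired analysis was possible because the series has 1 group.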

Other observations

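A window of 1000 bp in place of 500 bp brought 5 members into the bound group, namely Ca-alpha1T and Ih of the voltage-gated class and nAChRalpha7, Nmdar2 and GluClalpha of the receptors, for 25 of 45 members against 30% of all genes. Of these, nAChRalpha7 and Nmdar2 had no optimal peak in their span and no pooled permissive region within 500 bp of a start.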
